A study of Mus musculus with 12 samples.

Results

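Solute carriers are membrane proteins that move small molecules such as amino acids, sugars, nucleotides, vitamins and metal ions across the membranes of cells and organelles. They were examined here in osteoblasts and endothelial cells of mouse long bones. The set comprised 68 well expressed solute carriers out of 323 solute carrier genes with a symbol of their own on the array, among 19937 genes in all. A gene was taken if its symbol had the form of a solute carrier name and the mean log2 expression of at least 1 of 4 groups of arrays exceeded 7, read from the probe set with the highest mean over the 12 arrays. The mean stayed at or below that level in 248 solute carriers, and 7 carriers of glucose, lactate, iron and bicarbonate were left out by name (Slc2a1, Slc2a3, Slc16a1, Slc16a3, Slc40a1, Slc11a2 and Slc4a1). The members were thus chosen by their group means of log2 expression, so counts and medians over the members are descriptions, and they lean towards whichever group brought a member in.

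The mice were females of the immunodeficient NOD SCID strain. Tumor-bearing mice had been given 200000 MDA-MB231 scp1833 cells, a subline of a human breast cancer line that grows in bone, by injection into the heart, and tumors were followed in the long bones for about 2 weeks. Tumor-free mice were the controls. Sorting took cells negative for GFP, TR119 and CD45. Among these, osteoblasts lacked SCA1 and CD31 and carried CD51, whereas endothelial cells carried SCA1 and CD31. Each of the 4 groups (2 cell types, each from tumor-free and tumor-bearing mice) held 3 arrays described as biological replicates. No source used here says whether an array pooled several mice, and p-values reflect only how these samples vary, which may be technical. RNA was amplified before hybridization.

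The family numbers group carriers by descent and roughly by cargo. Families 1, 6, 7, 38 and 43 hold mostly amino acid carriers, with the family 3 heavy chain as a partner subunit. Family 25 carriers sit in the inner membrane of mitochondria and a few other organelles, and families 30 and 39 export and import zinc. Family 16 moves lactate and related acids, and family 35 supplies nucleotide sugars to the Golgi. In bone, carriers of phosphate, sulfate, citrate and calcium are known for their part in matrix formation and mineral handling.

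Array medians ranged from 5.21 to 5.41 (log2 expression), and with 3 arrays a group precision is limited. Correlations between replicates were 0.867 to 0.908 for tumor-free osteoblasts, against 0.946 to 0.969 elsewhere. Of 16 endothelial markers tested, 15 were higher in endothelial cells of tumor-free mice and 16 in those of tumor-bearing mice, and all 8 osteoblast markers measured were lower there in both settings (limma, adjusted p under 0.05). The tumor-free osteoblast arrays stood apart from each other. The mean of 11 chondrocyte markers was 9.77, 8.55 and 6.83 on tumor-free replicates 1 to 3 and 9.71 to 10.47 in tumor-bearing mice. The mean of 11 macrophage markers was 5.62, 9.03 and 8.78 on the same tumor-free arrays and 5.55 to 7.68 in tumor-bearing mice.

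Of the 68 members, 16 exceeded 7 in all groups, 12 in 3 groups, 16 in 2 groups and 24 in 1 group. The last set held 13 members above the level only in osteoblasts with tumor, 5 only in endothelial cells without tumor, 3 only in endothelial cells with tumor and 3 only in osteoblasts without tumor. For 27 members the highest mean lay in osteoblasts with tumor and for 5 in those without, while for 24 it lay in endothelial cells without tumor and for 12 in those with tumor. Tumor-free osteoblasts had the lowest mean for 34 members and the largest SD over replicates for 41. Their median SD over the members was 0.538, and it was 0.295 for osteoblasts with tumor, 0.235 for endothelial cells without tumor and 0.190 for those with it. The highest group means just inside the threshold were 7.01 for Slc20a2, 7.02 for Slc10a7, 7.03 for Slc16a11 and 7.05 for Slc48a1. Just outside it lay Slc30a5 at 6.92, Slc39a3 at 6.95, Slc12a4 at 6.99 and Slc7a1 at 6.9991.

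**Figure D1:**
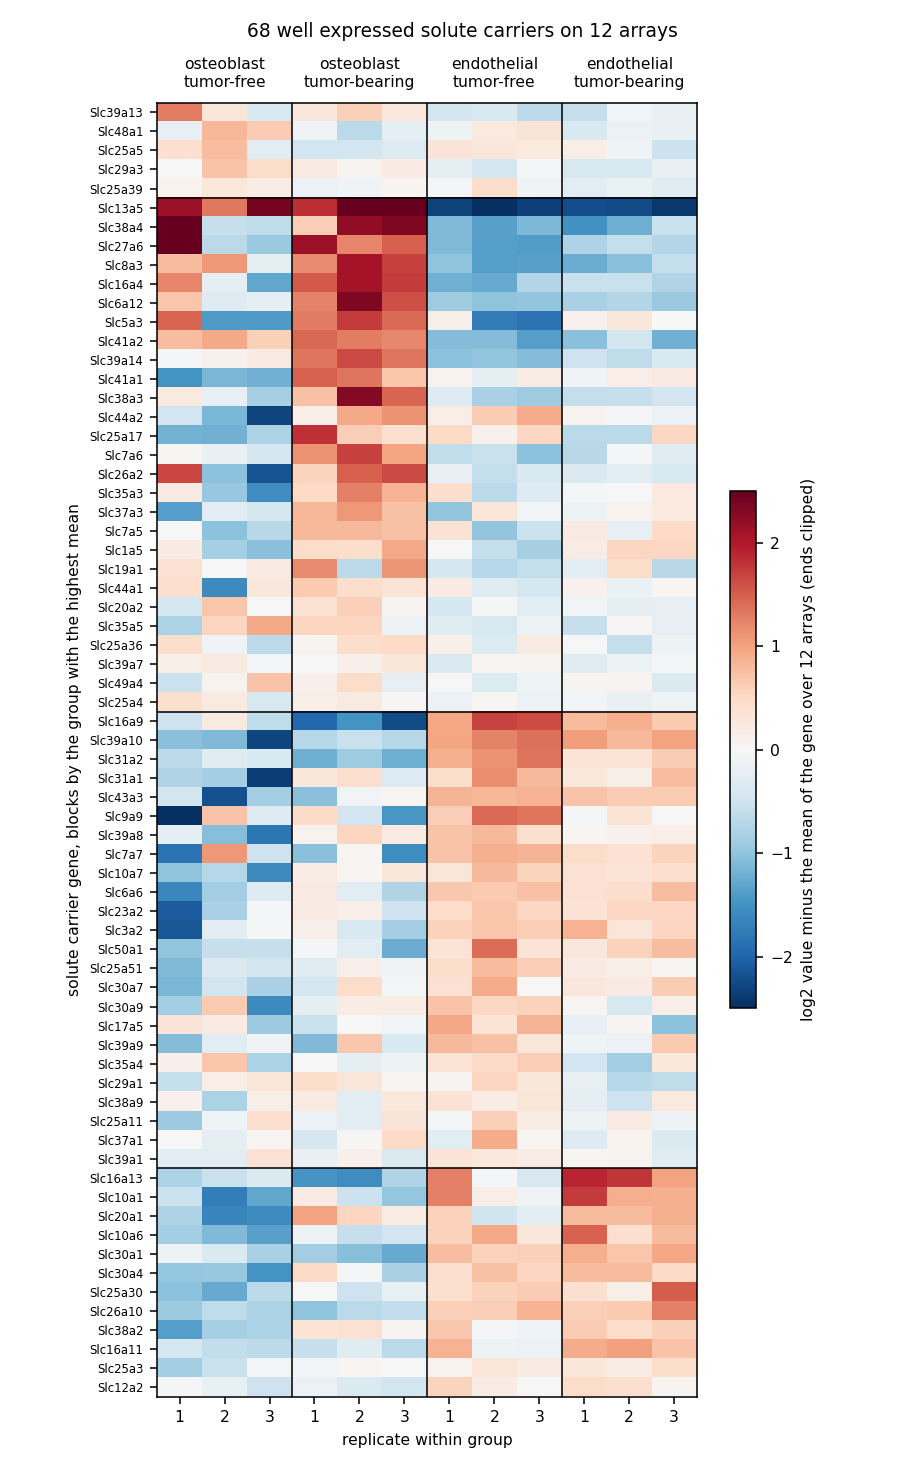
Log2 expression of 68 solute carriers (rows) on 12 arrays (columns, replicates 1 to 3 of each group), minus the mean of the gene over the 12 arrays. Rows are sorted into blocks by the group with the highest mean: 5, 27, 24 and 12 members from top to bottom. Columns of tumor-free osteoblasts differ among themselves more than those of the other groups.

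The members with the highest mean over the 12 arrays were Slc38a2 (10.47), a sodium-coupled importer of neutral amino acids, Slc25a5 (9.95) and Slc25a4 (9.68), which exchange ATP and ADP across the mitochondrial membrane, Slc6a6 (9.72), the taurine transporter, and Slc44a1 (9.66), a choline transporter. Slc43a3 (9.56), which carries purine nucleobases, Slc25a3 (9.43), the mitochondrial phosphate carrier, and Slc12a2 (8.93), the sodium, potassium and chloride cotransporter, completed the 8 highest. These are brightness values of different probe sets and set no order of abundance between genes. The group means were closest together for Slc25a4, with a range of 0.27, followed by the lysosomal carrier Slc49a4 (0.28), the zinc carriers Slc39a7 (0.29) and Slc39a1 (0.40), Slc25a39 (0.42), a mitochondrial glutathione carrier, and Slc37a1 (0.42), a sugar phosphate carrier. Slc25a4, for example, had group means from 9.56 to 9.83 (log2).

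The tumor comparison in osteoblasts asked which carriers differed between bones with and without metastases. The test passed for 15 of 68 members (22.1%), of which 14 rose in tumor-bearing mice and Slc16a9 fell. Among all 12430 genes tested 4.59% passed, 4.01% higher and 0.571% lower (limma, Benjamini-Hochberg adjusted p under 0.05). The groups of arrays did not overlap for 30 members (44.1%), against 24.7% of all genes. The median log2 difference over the members was 0.59, with 54 of 68 above 0, and that over all genes was -0.0014. Part of this lean comes with the choice of members: 8 of the 13 members that were above 7 only in osteoblasts of tumor-bearing mice passed, against 1 of the 16 above 7 in all groups (Slc38a2, 6.25%). Of the 34 members whose mean over all 12 arrays exceeded 7, 5 passed (14.7%), all of them higher. In whole-group RNA, fewer cells of a type and less RNA per cell cannot be told apart.

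These calls rest on an estimate of spread shared by all 12 arrays. When only the 6 osteoblast arrays were fitted, 0 of 68 members and 0 of 12430 genes passed (smallest adjusted p = 0.103 by limma), although 29 members and 1820 genes had an unadjusted p under 0.05. With the mean of 15 immediate early genes as a covariate, a setting chosen after seeing the data, 0 members and 0 genes passed (24 members and 1461 genes at an unadjusted p under 0.05), and all 15 members kept their direction. The fold moved by over 1.5 times in 7 of the 15. It went from 3.12 to 1.11 for Slc35a3, from 3.72 to 1.66 for Slc16a4, from 3.74 to 1.92 for Slc20a1, from 3.39 to 1.74 for Slc38a3, from 2.505 to 1.35 for Slc39a8 and from 3.19 to 2.06 for Slc6a12, but from 3.00 to 6.55 for Slc37a3. In osteoblasts this covariate did not overlap between tumor-free arrays (8.85, 8.35 and 7.94) and those with tumor (9.31 to 9.44). The fit can therefore hardly tell it from tumor status, and the SE widens. For Slc10a7 the difference was 1.27 ± 0.22 (SE) without the covariate and 1.24 ± 0.36 with it. The loss of calls in this fit thus says little about the part of these genes. Tumor-free osteoblasts varied more than the shared estimate of spread. In simulated arrays with the spread observed in each group, a large share of the calls in comparisons with this group were false. Few genes were changed there, and each SD over 3 arrays was taken as the true one. That share therefore does not carry over to the real calls. Adjusted p-values of the osteoblast tumor comparison and of the tumor-free cell type comparison are likely too small. The same holds for the comparison of tumor differences between the cell types. Of the 11 chondrocyte markers, 2 rose with tumor, while all 11 differences were above 0, 10 had an unadjusted p under 0.05 and their median was 1.92. Of 9 markers of smooth muscle and pericytes, 3 rose and 1 fell, their mean lying at 6.57 to 6.70 without tumor and at 7.05 to 8.09 with tumor. The part of these cells in the calls was not tested. Without replicate 2 of the tumor-bearing osteoblasts 5 members passed, and without replicate 1 of the tumor-free osteoblasts 25 did. Slc41a1, Slc39a14, Slc7a6, Slc10a7 and Slc16a9 passed whichever of the 12 arrays was left out.

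Slc41a1, a magnesium transporter of the plasma membrane, differed by the largest amount. Its log2 values were 5.96, 6.31 and 6.25 in tumor-free osteoblasts and 8.93, 8.79 and 8.15 in osteoblasts of tumor-bearing mice. All arrays of tumor-bearing mice lay above all tumor-free ones. The log2 difference was 2.45 ± 0.22 (SE, 95% interval 1.98 to 2.93), a 5.47-fold rise (adjusted p = 0.00139 by limma).

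Among the zinc carriers 2 of 11 members passed, both importers, and both rose, against 4.59% of all genes. Slc39a14 was above 7 only in osteoblasts of tumor-bearing mice. Slc39a14, which imports zinc, manganese and iron that is not bound to transferrin, had log2 values of 6.00, 6.17 and 6.28 without tumor and 7.40, 7.71 and 7.40 with tumor. The groups did not overlap, and replicates lay close together in both. It rose 2.56-fold (log2 difference 1.36 ± 0.14 SE, adjusted p = 0.00232 by limma). Slc39a8, a close relative with a similar range of metals, had tumor-free values of 7.57, 6.76 and 6.01 and tumor values of 7.92, 8.35 and 8.04. It rose 2.505-fold (adjusted p = 0.041), but passed in only 1 of the 12 fits that left out 1 array. The other 9 members of these families lay between -0.63 and 1.01. The lowest of these was Slc30a1, an exporter at the cell surface, at -0.63 (adjusted p = 0.0802), and the highest Slc30a4, a vesicular exporter, at 1.01 (adjusted p = 0.0689).

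Of 12 members in the families counted as amino acid carriers, 4 passed and all rose, and 11 differences were above 0 (median 1.17), against 4.59% and a median of -0.0014 over all genes. Of the 4, Slc38a3, Slc6a12 and Slc7a6 were above 7 only in osteoblasts of tumor-bearing mice, so the choice of members favours their direction. Slc38a2, known to be induced by amino acid shortage and by hypertonic medium, stood at 9.10, 9.65 and 9.68 without tumor and at 10.81, 10.85 and 10.53 with tumor. All tumor values lay above all tumor-free values, and the rise was 2.38-fold (adjusted p = 0.0147 by limma). Slc7a6, a light chain that exchanges cationic for neutral amino acids, stood at 6.64, 6.44 and 6.20 against 7.74, 8.32 and 7.61. It rose 2.75-fold (log2 difference 1.46 ± 0.24 SE, adjusted p = 0.0103). Slc6a12, a carrier of betaine and GABA known from cells in hypertonic medium, rose 3.19-fold (adjusted p = 0.0134), from 6.52, 5.50 and 5.61 to 7.07, 8.15 and 7.43. Slc38a3, a glutamine carrier, rose 3.39-fold (adjusted p = 0.0261), from 6.18, 5.73 and 5.11 to 6.67, 8.23 and 7.40.

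In both Slc6a12 and Slc38a3 tumor-free replicate 1 was the highest of its group and lay near the lowest tumor array. Slc7a5 and Slc1a5, which carry large neutral amino acids and glutamine, did not pass, at differences of 1.35 (adjusted p = 0.0517) and 1.18 (adjusted p = 0.0637). Slc3a2, the heavy chain that pairs with Slc7a5, Slc7a6 and Slc7a7, stood at 6.36, 8.20 and 8.44 without tumor and at 8.62, 8.10 and 7.64 with tumor. Its groups overlapped, and its difference was 0.45. Without tumor-free replicate 1 it was -0.20. None of 18 tested genes of the response to amino acid shortage passed (limma, 2 of them at an unadjusted p under 0.05), and their median difference was 0.18.

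The sodium-dependent phosphate importer Slc20a1 rose 3.74-fold (log2 difference 1.90 ± 0.32 SE, adjusted p = 0.0116 by limma). Its values were 7.05, 6.16 and 6.25 without tumor and 8.83, 8.35 and 7.995 with tumor, with no overlap. The second phosphate importer of the family, Slc20a2, differed by 0.26 and its groups overlapped. Slc10a7, a relative of bile acid carriers that is needed for skeletal development, rose 2.41-fold (adjusted p = 0.0118), from 5.46, 5.76 and 4.87 to 6.65, 6.52 and 6.75.

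Other carriers that passed belong to separate families. Of 9 family 25 members 1 passed, against 4.59% of all genes. This was Slc25a17, which moves coenzyme A and related cofactors into peroxisomes and rose 4.03-fold (adjusted p = 0.0205 by limma). Slc25a17, like Slc37a3, Slc16a4 and Slc35a3 below, was above 7 only in osteoblasts of tumor-bearing mice, so the choice of members favours its rise. Its tumor-free values were 5.25, 5.22 and 5.66, below all tumor values of 8.25, 7.05 and 6.85. The choline transporter-like gene Slc44a2 rose 4.14-fold (adjusted p = 0.0221), from 6.99, 6.33 and 5.17 to 7.63, 8.42 and 8.58. Slc37a3, a carrier of the sugar phosphate family in lysosomes, rose 3.00-fold (adjusted p = 0.0306). Slc16a4, a family 16 member without an established cargo, rose 3.72-fold (adjusted p = 0.0489), and Slc35a3, the Golgi carrier of UDP-N-acetylglucosamine, rose 3.12-fold (adjusted p = 0.0499). Both lay close to the threshold and had a wide tumor-free spread, 7.09, 5.63 and 4.58 for Slc16a4 and 6.98, 5.81 and 5.21 for Slc35a3. They passed in 1 and 2 of the 12 fits without 1 array. Slc25a17 lay below the array median on 2 tumor-free osteoblast arrays. Slc44a2, Slc37a3, Slc16a4 and Slc35a3, and Slc38a3 and Slc10a7 above, did so on 1. The size of these folds is therefore uncertain.

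Slc16a9, a member of the monocarboxylate family linked to carnitine and creatine transport, was the only member that passed with a lower level in tumor-bearing mice. It stood at 6.37, 7.11 and 6.26 without tumor and at 4.93, 5.39 and 4.65 with tumor, and the groups did not overlap. The fall was 3.02-fold (log2 difference -1.60 ± 0.28 SE, adjusted p = 0.0126 by limma). On 2 of the tumor-bearing osteoblast arrays the value lay below the array median, so the size of this fold is uncertain. A second, dim probe set of this gene, at a mean of 3.05, gave -0.18. Lower levels without overlap that did not pass were measured for Slc25a5 (-0.73, adjusted p = 0.113 by limma), Slc31a2 (-0.66, adjusted p = 0.0617), Slc30a1 (-0.63) and Slc25a39 (-0.24). Under quantile normalization the split of calls was 11 higher and 3 lower, against 14 and 1.

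**Figure D2:**
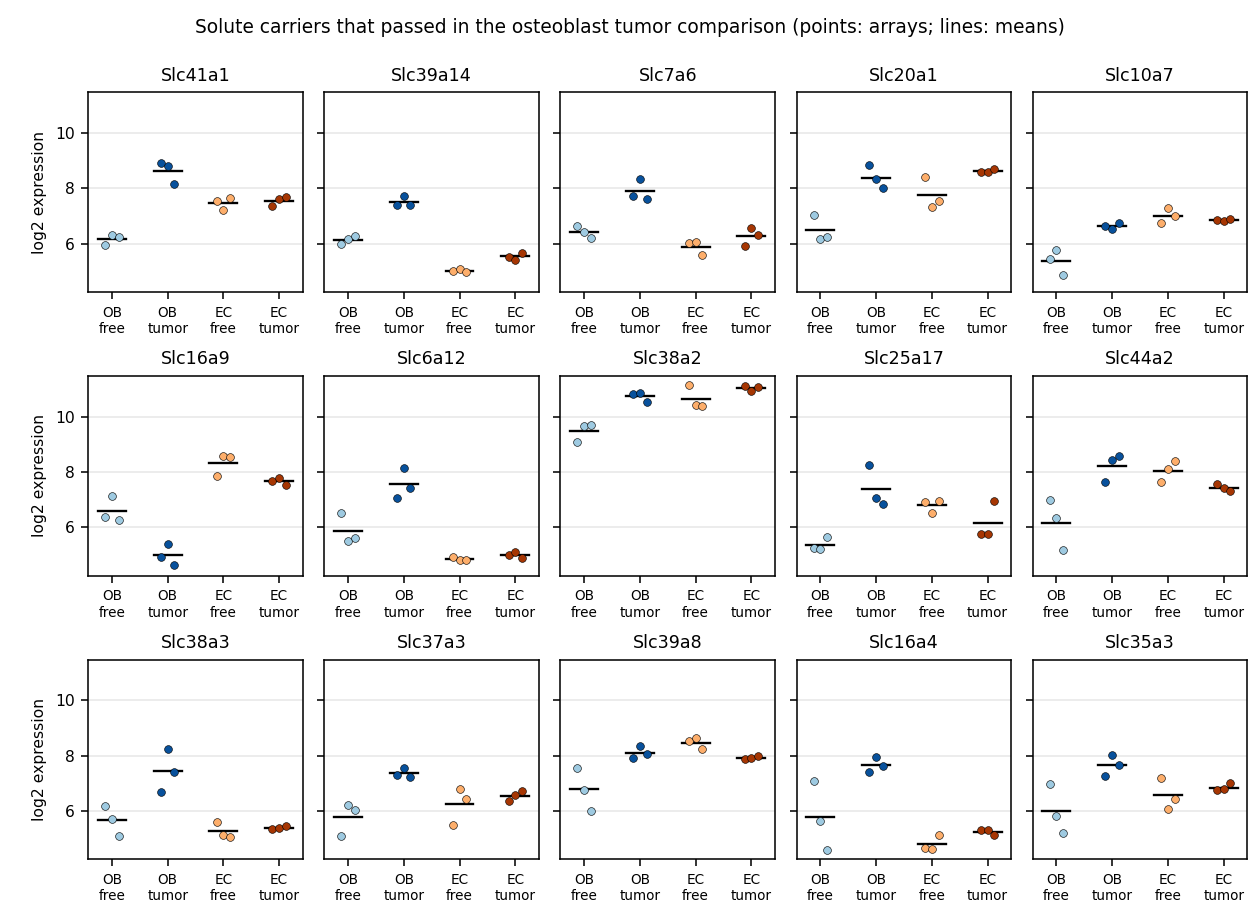
Log2 expression of the 15 solute carriers that passed in the osteoblast tumor comparison, 1 panel per gene, with 3 arrays (points, replicates 1 to 3 from left to right) and their mean (line) in osteoblasts (OB) and endothelial cells (EC) of tumor-free and tumor-bearing mice. Tumor-free and tumor-bearing osteoblast points do not overlap in any panel, and of these 15 genes Slc16a9 alone is lower with tumor.

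Promoter sequence was set beside these changes to show what stands upstream of members that moved together. RefSeq promoter windows (GRCm38.p6) were matched by symbol for 54 of 68 members and for 13 of the 15 that passed. In the 250 bases before the annotated start, 4 motifs were searched on both strands: ACGTG, the core of the hypoxia response element; CACGTG, an E-box, which contains ACGTG; TGATGNAA, the core of the C/EBP-ATF element; and TGANTCA, an AP-1 site. ACGTG was found in 12 of 54 members (22.2%) and 3 of 12 that rose, against 16.5% of all 27025 promoters. CACGTG was found in 5 members (9.26%) and 2 that rose, against 6.04% of all. TGATGNAA was found in 5 members (9.26%) and 0 that rose, against 3.53%, and TGANTCA in 4 members (7.41%) and 1 that rose (Slc6a12), against 6.85%. A match is a description of letters and not a bound site. The 27025 promoters are those of all symbols with an entry, more than the 19937 genes on the array. They were not matched to the members in expression or base composition, so the shares do not compare like with like. Windows are given, with matches in capitals, for the 3 matched members that rose with the smallest p-values (limma) and for Slc16a9, which fell.
Slc41a1, chr1:131827762-131828011, plus strand: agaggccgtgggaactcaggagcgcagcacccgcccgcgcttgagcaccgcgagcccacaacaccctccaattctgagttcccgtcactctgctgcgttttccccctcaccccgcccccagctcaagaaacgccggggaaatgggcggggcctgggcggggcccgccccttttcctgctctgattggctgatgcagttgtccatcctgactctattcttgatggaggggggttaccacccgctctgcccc
Slc20a1, chr2:129198523-129198772, plus strand: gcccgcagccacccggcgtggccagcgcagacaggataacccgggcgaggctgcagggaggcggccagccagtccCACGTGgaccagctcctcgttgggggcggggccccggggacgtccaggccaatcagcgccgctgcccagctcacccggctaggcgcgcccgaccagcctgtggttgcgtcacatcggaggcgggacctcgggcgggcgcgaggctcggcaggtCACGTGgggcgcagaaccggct
Slc7a6, chr8:106168604-106168853, plus strand: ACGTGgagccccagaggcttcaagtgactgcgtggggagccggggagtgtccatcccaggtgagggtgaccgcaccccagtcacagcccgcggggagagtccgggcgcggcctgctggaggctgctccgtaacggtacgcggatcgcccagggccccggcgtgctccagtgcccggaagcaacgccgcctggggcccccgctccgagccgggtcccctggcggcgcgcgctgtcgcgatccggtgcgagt
Slc16a9, chr10:70245026-70245275, plus strand: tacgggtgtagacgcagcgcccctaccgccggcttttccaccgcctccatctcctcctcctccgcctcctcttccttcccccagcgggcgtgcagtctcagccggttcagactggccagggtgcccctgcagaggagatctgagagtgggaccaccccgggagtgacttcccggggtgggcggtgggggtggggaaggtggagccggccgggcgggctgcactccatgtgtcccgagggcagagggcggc
In Slc20a1 the E-boxes begin 175 and 22 bases before the start, and in Slc7a6 ACGTG begins 250 bases before it. The windows of Slc41a1 and Slc16a9 hold none of these letters.

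Several members were high on 1 tumor-free osteoblast array and low on the other two. Slc26a2, the sulfate carrier on which cartilage proteoglycans depend, stood at 9.53, 6.83 and 5.70 without tumor and at 8.43, 9.36 and 9.51 with tumor. Tumor-free replicate 1 thus lay above every tumor array, and the difference of 1.75 ± 0.73 (SE) did not pass (adjusted p = 0.175 by limma). The chondrocyte marker mean had the same order over the tumor-free arrays, and its part in this value was not tested. Slc38a4, an amino acid carrier, stood at 9.01, 5.54 and 5.47 against 6.73, 8.33 and 8.44, and Slc27a6, of the fatty acid transport family, at 8.22, 4.81 and 4.55 against 7.61, 6.71 and 6.97. For both, the groups overlapped.

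The inositol carrier Slc5a3, which accumulates osmolytes, stood at 9.32, 6.46 and 6.46 in tumor-free osteoblasts and at 9.18, 9.61 and 9.29 in those of tumor-bearing mice. In endothelial cells it stood at 8.01, 6.13 and 6.02 without tumor and at 7.98, 8.16 and 7.88 with tumor. In both cell types tumor-free replicate 1 lay within the range of the tumor arrays. The osteoblast difference of 1.95 did not pass (adjusted p = 0.133 by limma), nor did the endothelial one of 1.29. The mean of the immediate early genes was 8.85, 8.35 and 7.94 on tumor-free osteoblast arrays and 9.21, 8.41 and 8.33 on tumor-free endothelial arrays, against 9.31 to 9.44 and 9.21 to 9.28 in tumor-bearing mice. Its part in these values was not tested. In the fit with it as a covariate the difference of Slc5a3 was -0.74 in osteoblasts and -0.38 in endothelial cells. That fit can hardly tell the covariate from tumor status.

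The cationic amino acid light chain Slc7a7 and the endosomal sodium and proton exchanger Slc9a9 had another order. Slc7a7 stood at 5.72, 8.64 and 7.04 on tumor-free osteoblast arrays, and Slc9a9 at 4.58, 7.90 and 6.85. Both were lowest on replicate 1, as was the macrophage marker mean, whose part was not tested. Their tumor differences were -0.42 and 0.25, with overlapping groups.

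**Figure D3:**
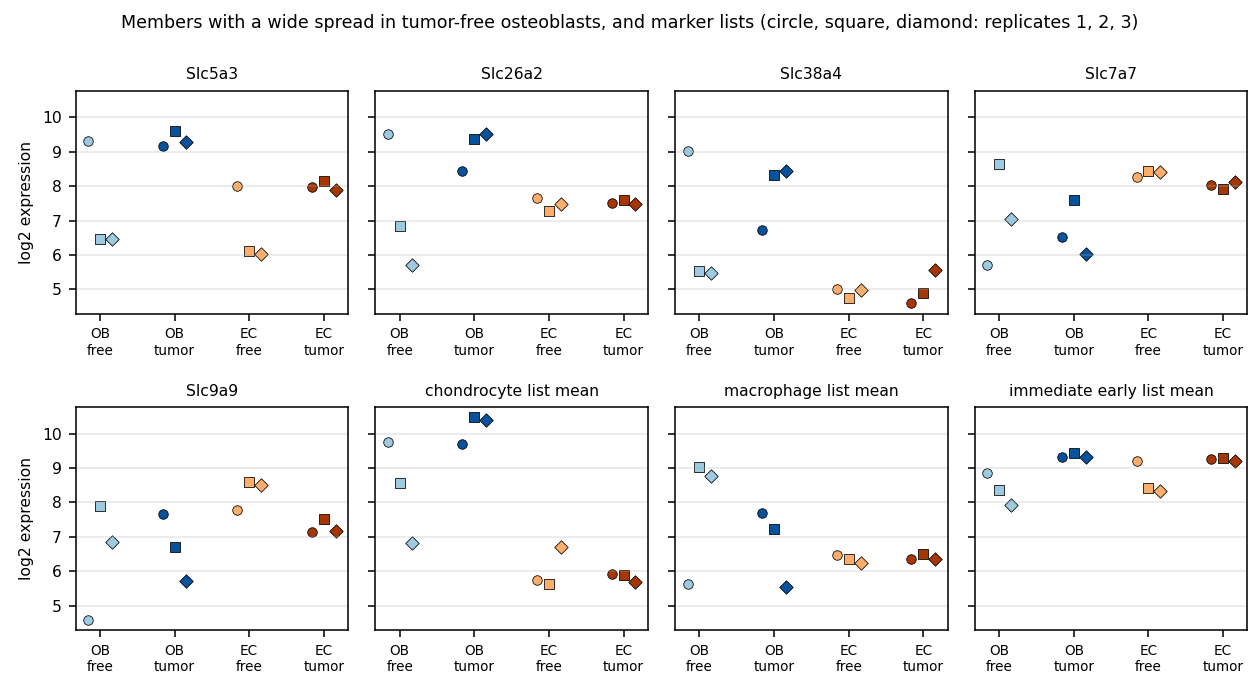
Log2 expression on every array of 5 members with a wide spread in tumor-free osteoblasts, and the means of 11 chondrocyte, 11 macrophage and 15 immediate early genes. Circles, squares and diamonds are replicates 1, 2 and 3. Tumor-free osteoblast replicate 1 is the highest of its group for Slc5a3, Slc26a2, Slc38a4 and the chondrocyte list, and the lowest for Slc7a7, Slc9a9 and the macrophage list.

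In endothelial cells 0 of 68 members passed between tumor-bearing and tumor-free mice, and 0.0241% of all genes did (limma). At an unadjusted p under 0.05 there were 12 members and 861 genes. The groups did not overlap for 20 members (29.4%), against 18.8% of all genes. The smallest p-values belonged to the copper carrier Slc31a2, with values of 8.30, 8.54 and 8.78 without tumor and 7.76, 7.76 and 8.07 with tumor (difference -0.68 ± 0.18 SE, adjusted p = 0.364 by limma). Slc39a14 followed at 0.52 (adjusted p = 0.382), with 5.03, 5.08 and 4.98 against 5.54, 5.43 and 5.67. Slc29a1, which equilibrates nucleosides including adenosine, differed by -0.81 (adjusted p = 0.47), and Slc16a13 by 1.29 (adjusted p = 0.491). In Slc16a13 tumor-free replicate 1 stood at 7.98 and the others at 6.68 and 6.31, against 8.61, 8.50 and 7.73 with tumor, so the groups overlapped. With array quality weights 9 members and 449 genes passed, and without tumor-free endothelial replicate 1 there were 2 members and 61 genes, against 0 and 3. With the immediate early covariate 0 members and 0 genes passed (5 members and 624 genes at an unadjusted p under 0.05), and 25 of the 68 differences changed sign. Here too the covariate was higher with tumor, so this fit can hardly tell it from tumor status.

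Slc41a1 was the 1 member whose tumor difference itself differed between the cell types. In endothelial cells it stood at 7.54, 7.22 and 7.64 without tumor and at 7.37, 7.62 and 7.67 with tumor, a difference of 0.09. The osteoblast difference exceeded the endothelial one by 2.37 ± 0.31 (SE, adjusted p = 0.0279 by limma). Among all genes 0.209% passed this test. The test includes the widely spread tumor-free osteoblasts, so its adjusted p-values are likely too small. The call was lost, with 0 members passing, when tumor-bearing osteoblast replicate 2, tumor-free endothelial replicate 2 or 3, or any of the 3 endothelial arrays of tumor-bearing mice was left out. It was also lost with the replicate number as a block (0 members and 0 genes). Without tumor-free osteoblast replicate 1, 10 members passed, and without replicate 2 there were 3. The next members were Slc25a17 at 2.67 and Slc10a7 at 1.44 (adjusted p = 0.0781 for both), and Slc44a2 at 2.66 (adjusted p = 0.0827), none of which passed. For the remaining members that rose in osteoblasts, a difference between the cell types was not detected at this number of arrays.

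**Figure D4:**
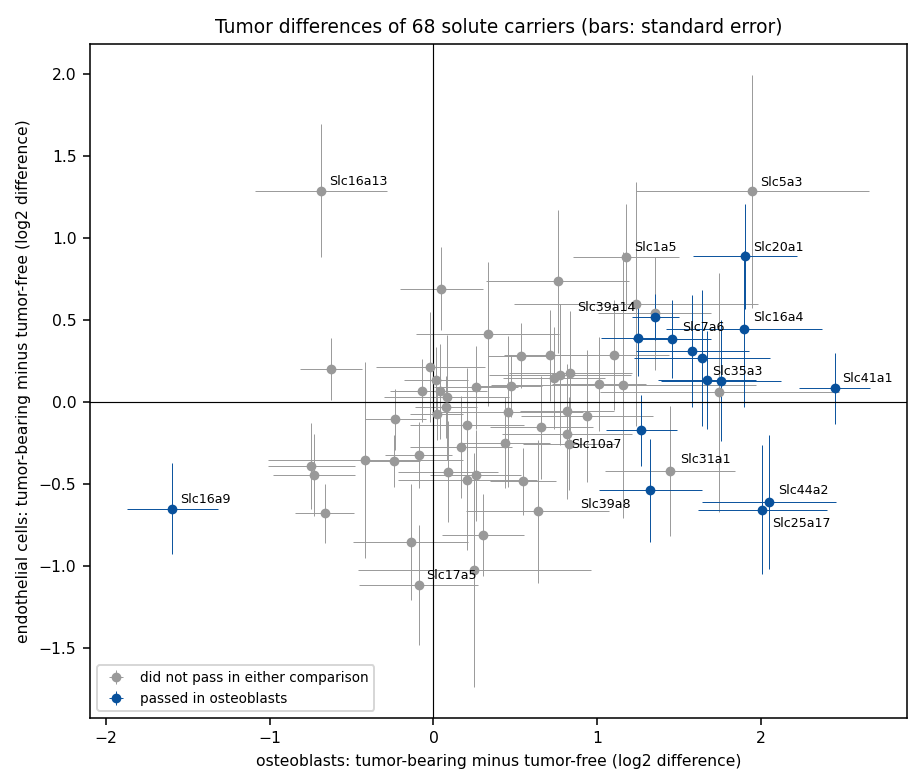
Log2 difference between tumor-bearing and tumor-free mice for 68 solute carriers in osteoblasts (horizontal axis) and endothelial cells (vertical axis), with standard errors as bars. Blue points are the 15 members that passed in osteoblasts, and 0 passed in endothelial cells. Slc41a1 lies farthest to the right, at 2.45 against 0.09.

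Between endothelial cells and osteoblasts of tumor-free mice 32 members differed (47.1%), 26 of them higher in endothelial cells, whereas 31% of all genes differed (18.2% higher and 12.7% lower). In tumor-bearing mice 20 members differed (29.4%), 10 in each direction, against 14.9% of all genes (8.13% higher and 6.79% lower). These 2 comparisons, and the tumor comparisons above, share arrays. Among 112 solute carriers outside the set that were tested, 25 differed in tumor-free mice, 3 higher and 22 lower in endothelial cells. For scaling, centring each array on its median moved the median of all genes in the tumor-free comparison by 0.15 towards endothelial cells, and the smallest difference of a member that passed was 0.61. When only the 6 tumor-free arrays were fitted, 25 members and 1911 genes passed.

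The largest difference belonged to Slc13a5, a citrate importer of the plasma membrane. Its values were 9.05, 8.22 and 9.28 in tumor-free osteoblasts and 4.59, 4.15 and 4.57 in tumor-free endothelial cells, the latter below the array medians. It was 21.4-fold lower in endothelial cells of tumor-free mice (adjusted p = 1.78e-05 by limma) and 33.7-fold lower in those of tumor-bearing mice (adjusted p = 6.08e-06). Its osteoblast values with tumor, 8.74, 10.21 and 10.12, overlapped those without. Signal over background was not used here, so the size of this fold is uncertain.

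Other carriers with higher osteoblast levels in both settings were Slc41a2, a second magnesium carrier (log2 differences -1.96 and -2.21), the sodium and calcium exchanger Slc8a3 (-1.79 and -2.61), Slc39a14 (-1.12 and -1.96) and Slc6a12 (-1.01 and -2.55), the first value being that without tumor. Slc29a3, a lysosomal nucleoside carrier, was lower in endothelial cells only by -0.61 without tumor (adjusted p = 0.0304 by limma) and at -0.49 with tumor did not pass. In tumor-bearing mice Slc38a4 (-2.82), Slc16a4 (-2.41), Slc38a3 (-2.04), Slc7a6 (-1.61) and Slc41a1 (-1.07) were lower in endothelial cells. Slc41a1 had the opposite sign without tumor, at 1.29, and passed in both settings. On some or all endothelial arrays Slc41a2, Slc6a12, Slc39a14, Slc38a4, Slc16a4 and Slc38a3 lay below the array median, so the size of their differences is uncertain.

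Endothelial cells had higher levels of the zinc importer Slc39a10, at 9.09, 9.35 and 9.48 against 7.06, 7.002 and 5.81 in osteoblasts without tumor. The difference was 2.69 without tumor and 1.60 with tumor (adjusted p = 8.03e-05 and 0.00276 by limma). Both copper carriers were higher without tumor, the importer Slc31a1 by 2.13 and Slc31a2 by 1.57. With tumor Slc31a2 differed by 1.55 and passed, while Slc31a1 at 0.27 did not. The zinc exporter Slc30a1 was higher by 1.09 and 1.92, and the family 16 member Slc16a9 by 1.74 and 2.69. The dim second probe set of Slc16a9 disagreed in sign, at -0.21 and -0.10. Slc16a13 differed by 0.85 without tumor, which did not pass, and by 2.83 with tumor, which did. On some osteoblast arrays with tumor Slc16a9 and Slc16a13 lay below the array median, so the size of these differences is uncertain.

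The nucleobase carrier Slc43a3 stood at 10.40 to 10.43 in tumor-free endothelial cells and at 7.37 to 9.10 in tumor-free osteoblasts, a difference of 2.02 (adjusted p = 0.00428 by limma). With tumor it differed by 1.01 and did not pass (adjusted p = 0.126). The taurine carrier Slc6a6 was higher by 1.63 without tumor (adjusted p = 0.00395). Slc44a2 (1.88), Slc10a6 (1.71), which carries steroid sulfates, Slc30a4 (1.70), Slc39a8 (1.69) and Slc10a7 (1.65) were also higher in tumor-free endothelial cells. Of these 5, Slc10a6 also passed with tumor, at 1.28. Slc10a1, the bile acid importer known from liver, was higher by 1.63 and 1.61. On 1 or more osteoblast arrays Slc10a1, Slc44a2, Slc30a4 and Slc10a7 lay below the array median. The size of their differences is therefore uncertain. Slc26a10, of the anion exchanger family, was higher by 1.47 and 1.60; its gene overlaps B4galnt1, and which transcript the probe set reads was not tested. The same holds for Slc16a4 with Rbm15, Slc5a3 with Mrps6, Slc7a7 with Oxa1l and Slc31a1 with Fkbp15.

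**Figure D5:**
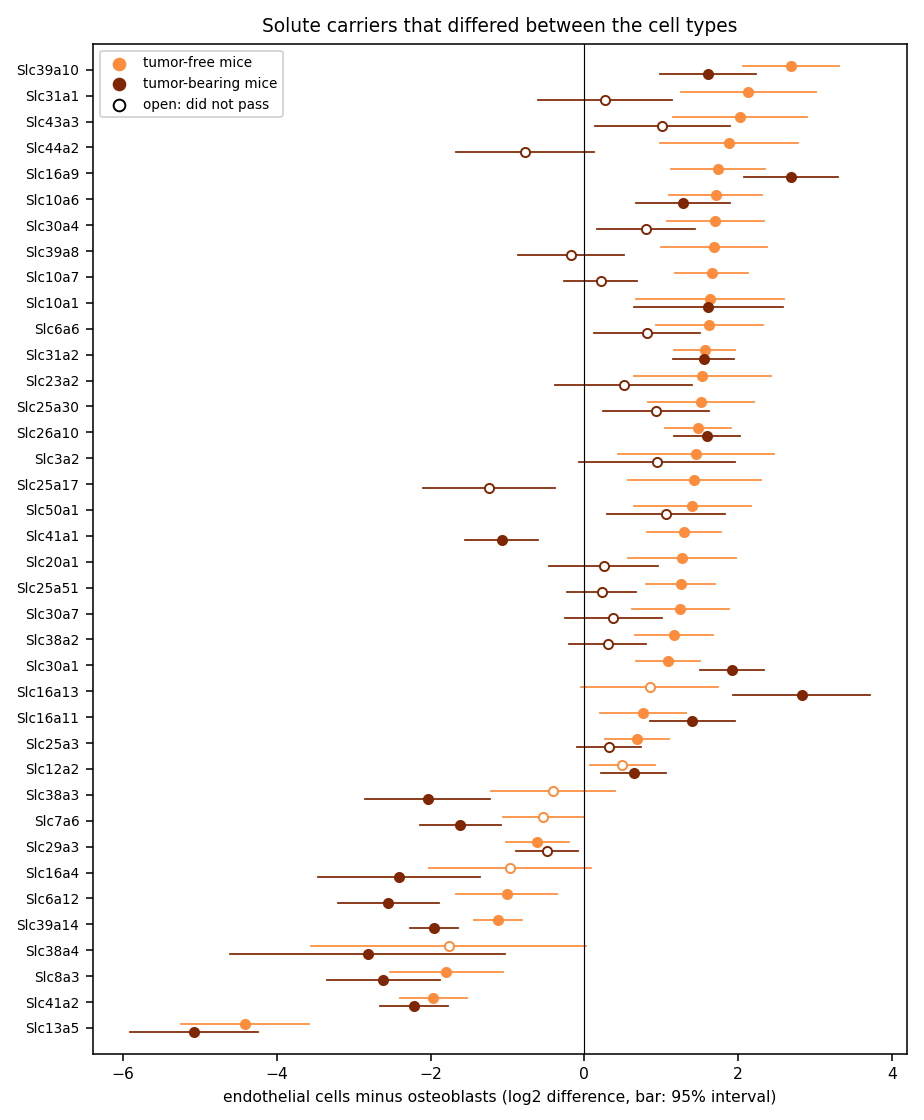
Log2 difference of endothelial cells minus osteoblasts, with 95% intervals, in tumor-free (orange) and tumor-bearing mice (brown), for the solute carriers that passed in either. Filled points passed and open points did not. Slc13a5 lies farthest to the left at -4.42 and -5.08, and Slc41a1 changes side between 1.29 and -1.07.

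By family, 6 of 11 zinc carriers differed between the cell types without tumor (5 higher and 1 lower in endothelial cells), against 31% of all genes. Of 12 members in the families counted as amino acid carriers 5 differed. Slc38a2, the partner chain Slc3a2, the nucleobase carrier Slc43a3 and the taurine carrier Slc6a6 were higher, and the betaine and GABA carrier Slc6a12 was lower. Of 9 family 25 members 4 differed (all 4 higher: Slc25a17, Slc25a3, Slc25a30 and Slc25a51). Among all genes 18.2% were higher and 12.7% lower. With tumor, 4 of the 12 members in the amino acid families differed and all 4 were lower in endothelial cells, against 14.9% of all genes. None of 9 family 25 members passed (limma, 2 at an unadjusted p under 0.05), and all 4 family 16 members passed, 3 of them higher. The 4 of the amino acid families (Slc38a3, Slc38a4, Slc6a12 and Slc7a6) were above 7 only in osteoblasts of tumor-bearing mice. Of the 3 higher family 16 members, 2 (Slc16a11 and Slc16a13) were above it only in endothelial cells of tumor-bearing mice. The choice of members thus favours these directions.

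Among 18 tested partners and other transporters outside the named families, 2 rose in osteoblasts of tumor-bearing mice, against 4.01% of all genes. They were Atp2a2, the calcium pump of the endoplasmic reticulum, 2.21-fold (adjusted p = 0.011 by limma), and Flvcr2, a choline and heme carrier, 2.51-fold (adjusted p = 0.0489). None passed in endothelial cells (2 at an unadjusted p under 0.05). Between the cell types without tumor 8 of the 18 differed, 4 higher and 4 lower in endothelial cells, against 31% of all genes. The prostaglandin carrier Slco2a1 was 17.6-fold higher in tumor-free endothelial cells and Emb, a partner chain of monocarboxylate carriers, 15.3-fold lower. Of 8 tested genes of the oxidative stress response 2 rose in osteoblasts with tumor, against 4.01% of all genes. They were Srxn1 and Txnrd1, by 1.25 and 0.92 (adjusted p = 0.00989 and 0.0377 by limma).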

How the data were processed

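The deposited values are log2 expression of 34760 probe sets on 12 arrays, made by the authors with affy per the submitters' processing notes. The version of affy, the background correction and the normalization: not given in the sources used here. Genes were named through the platform annotation, where 21640 probe sets had 1 symbol, and each gene was read from its brightest probe set. Of the members, 8 have several, and 10 overlap another protein-coding gene. Genes above the array median on at least 3 arrays were tested (12430, all 68 members among them). limma 3.58.1 in R 4.3.3 fitted 4 group means with default eBayes (8 residual and 2.89 prior degrees of freedom). Tests were two-sided, with Benjamini-Hochberg adjustment over all genes tested and a threshold of 0.05. The fit was tested on simulated data. With equal spread few calls were false, but with the spread observed in each group a large share of calls in comparisons with tumor-free osteoblasts were. Few genes were changed in the simulated data, so this share does not carry over to the real calls. SEs come from all 4 groups, and fold is 2 to the power of the log2 difference. The text names up to 8 members a direction per comparison by size of difference (6 for the comparison of differences), 4 by smallest p where fewer than 4 passed, the 8 highest means, the 6 smallest ranges, the 4 members on each side of the level, a list of carriers with known roles, and at most 3 genes of any other list. Slc7a6, Slc37a3 and a few others outside this rule were picked once their values were known. The members and lists were chosen with earlier results of these data known. Alternatives were normalization, centring, filters, probe set means, trend and robust settings, array weights, the replicate number as a block, only the groups compared, another choice of members and each array left out. Tumor-free osteoblast array 1 alone, and an immediate early covariate, were added after seeing the data.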

Additional observations from a re-analysis of the deposited data

Results flagged for a closer look

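Slc41a1, the magnesium transporter, differed between the cell types in its tumor difference. The osteoblast difference exceeded the endothelial one by 2.37 on the log2 scale (SE 0.31, adjusted p = 0.0279 by limma), with all 3 tumor-bearing osteoblast arrays above all 3 tumor-free ones. The call was lost with the replicate number as a block and in 6 of the 12 fits that left out 1 array. Tumor-free osteoblasts, which varied more than the shared estimate of spread, are part of this comparison, so its adjusted p-value is likely too small.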

How the results depend on the processing

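The count of members that passed in the osteoblast tumor comparison was 13 to 18 under 8 of the planned settings with all arrays, but 0 when only the groups compared were fitted, 5 when members were chosen by the mean over 12 arrays, and 0 with the immediate early covariate; it ranged from 5 to 25 when 1 array was left out. The endothelial count was 9 with array quality weights and ranged from 0 to 2 without 1 array. The cell type count without tumor was 17 with members chosen by the mean over 12 arrays and ranged from 25 to 33 without 1 array. With tumor it was 38 with array quality weights, 32 with only the groups compared and 5 with members chosen by the mean, and ranged from 17 to 26. The count for the difference of tumor differences was 8 with array quality weights and ranged from 0 to 10. The causes were not tested, except that the choice by the mean leaves 34 members. With tumor-free osteoblast replicate 1 as the only tumor-free osteoblast array, 16 members and 1344 genes passed in osteoblasts, 8 of the members shared with the 15; a lone array has no spread of its own, and it is assumed to vary like the other groups.

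Replicate numbers are shared across groups. Over all genes tested, the deviations of same-numbered arrays from their group means correlated little (-0.26 to 0.108 over 18 pairs). Single genes could still share an order. Slc5a3, Slc20a1, Slc1a5, Slc7a5, Slc35a3 and the immediate early mean were highest on replicate 1 in both tumor-free groups. Slc38a2 was lowest there in osteoblasts and highest in endothelial cells, and the remaining members were not compared in this way. With the replicate block 13 members passed in the osteoblast comparison, 32 and 21 between the cell types without and with tumor, 0 in endothelial cells and 0 for the difference of differences, so that the call of Slc41a1 was lost.

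In osteoblasts some tumor differences that had not passed changed sign. With tumor-free osteoblast array 1 alone the values were Slc38a4 -1.18, Slc26a2 -0.43, Slc25a4 -0.25 and Slc7a7 1.00. With the immediate early covariate the values were Slc38a4 -0.76, Slc26a2 -0.38, Slc25a4 -0.27, Slc5a3 -0.74 and Slc7a7 0.29. With quantile normalization the value was Slc25a4 -0.0245. With array quality weights the value was Slc9a9 -0.26. Without 1 array the range was -0.20 to 0.84 for Slc3a2, -0.16 to 0.24 for Slc25a4, -0.21 to 0.0338 for Slc12a2, -0.68 to 0.98 for Slc9a9 and -1.12 to 0.34 for Slc7a7. In endothelial cells some tumor differences that had not passed changed sign. With array quality weights the values were Slc3a2 0.0563, Slc38a4 -0.0928 and Slc41a1 -0.0195. With quantile normalization the value was Slc25a4 0.0148. With the immediate early covariate the values were Slc26a2 -1.26, Slc38a4 -1.09, Slc5a3 -0.38, Slc12a2 -0.26, Slc44a1 -0.13, Slc7a5 -0.0853, Slc30a1 -0.063, Slc9a9 0.0059, Slc7a7 0.0866, Slc6a6 0.28 and Slc3a2 0.64. Without 1 array the range was -0.20 to 0.0717 for Slc3a2, -0.16 to 0.32 for Slc38a4, -0.0377 to 0.15 for Slc26a2, -0.0592 to 0.029 for Slc25a4, -0.0487 to 0.22 for Slc12a2 and -0.0395 to 0.18 for Slc41a1. The other differences followed over these settings kept their sign, but not every member was followed, so these lists are not complete. In osteoblasts Slc27a6 stood at -1.12 with tumor-free osteoblast array 1 alone and at -0.75 with the covariate, against 1.24. With array 1 alone Slc29a3 (0.15), Slc39a1 (0.12), Slc16a11 (-0.0833) and Slc39a7 (-0.0173), among others, also changed sign. Leaving out 1 array leaves 2 in a group, and the array values carry no measure of signal over background, so small differences of dim probe sets stay unresolved.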
